A study of Homo sapiens with 4 samples.

Results

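The association of Star-PAP with protein-coding genes was compared between HEK293 cells with RBM10 depleted and control cells, gene by gene. All 19222 protein-coding genes on the 22 autosomes were members, of 20090 protein-coding genes on the autosomes and chromosome X, and none was chosen by its values. HEK293 is a human embryonic kidney cell line. The study made 4 HITS-CLIP libraries, in which RNA was cross-linked to protein by ultraviolet light (400 mJ per cm2), pulled down with an antibody and sequenced. In the control and siRBM10 libraries, and in a siStar-PAP library, the antibody was raised against Star-PAP. The IgG library was not analysed here. All cells were transfected with siRNA oligonucleotides and harvested 48 hours later, and the labels do not say which siRNA the control cells received. Each condition was 1 library, so no difference between conditions could be tested, and every interval below covers counting error only.

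Star-PAP, encoded by TUT1, is a poly(A) polymerase that acts on selected pre-mRNAs, where it adds the adenosine tail after the 3'-end has been cleaved. RBM10 is an RNA-binding protein with RNA recognition motifs, best known as a regulator of alternative splicing, and has been described as binding homopolymers of G and U. The comparison asks on which genes the sites of Star-PAP were fewer or more numerous with RBM10 depleted.

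The measured quantity was the number of peak summits in a gene. A summit is the single base at the top of a peak of cross-linked reads, and the list of summits gives no read depth, so more RNA of a gene and more Star-PAP on the same RNA cannot be told apart. The control list held 382958 autosomal summits and the siRBM10 list 276105. Counts were therefore compared as a scaled ratio, the share of siRBM10 autosomal summits in a gene over the share of control autosomal summits. A ratio of 1 in these terms is 1.39 control summits for each siRBM10 summit. The peak names of the control list carry another set label than those of the depletion lists. The commonest peak score was 1.33 in the control list, at 63.2% of summits, and 3.25 in the siRBM10 list, at 22.7%. A difference between sets and a difference between conditions can therefore not be told apart. The targeted gene gives no check of the depletion, since a summit is not an RNA level. RBM10, on chromosome X, had 7 control and 9 siRBM10 summits in its gene body, of which 5 and 1 were in exons.

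Summits were relatively more frequent in genes after RBM10 depletion, and most of all in exons. Exons of protein-coding genes held 10642 control summits, 2.78% of the autosomal total, and 21205 siRBM10 summits, 7.68% of the total. The scaled ratio of exons was 2.76 (95% exact interval 2.70 to 2.83). Introns held 160232 control and 130473 siRBM10 summits, a ratio of 1.129 (1.121 to 1.138). Outside protein-coding genes the ratio was 0.814 (0.808 to 0.819). In absolute number the siRBM10 list held fewer intron summits than the control list and more exon summits.

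At least 1 control summit lay in 13602 genes and at least 1 siRBM10 summit in 16365 genes. Both lists had a summit in 12782 of them. Control summits alone were found in 820 genes, siRBM10 summits alone in 3583 genes, and 2037 genes had none in either list.

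The study named 19 autosomal genes in its experiments on RBM10, and 17 of them had a control summit in the gene body. Of these 17, 16 also had a siRBM10 summit. A scaled ratio could be given for 14 genes, the others having 3 or fewer summits in each list. It was under 1 for 7 genes and over 1 for 7 genes, and the interval held 1 for 12 of the 14. These genes were chosen by the study with its own data in view, and for different assays. By quantitative RNA immunoprecipitation it reported that Star-PAP association was lost with RBM10 depleted on its selected mRNAs, BRCA1 among them. It tested FEZ1 and COL5A1 for 3'-end maturation, and ANKRD1 and RRAS2 for expression. A summit count is another measure than that immunoprecipitation, so the ratios are no like-for-like check of it.

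Summits were fewer, by the point estimate, on COQ2, an enzyme of coenzyme Q synthesis, which had 7 control and 3 siRBM10 summits (ratio 0.59, 0.10 to 2.60). AGTR1, the angiotensin II type 1 receptor, had 8 and 2 (0.35, 0.036 to 1.74). BPNT1, a nucleotidase, had 10 and 4 (0.55, 0.13 to 1.92). These 3 genes have so few summits that each interval reaches above 1. PAK1, a kinase downstream of Rac and Cdc42, had 24 control and 12 siRBM10 summits (0.69, 0.32 to 1.44). RRAS2, a Ras-related GTPase, had 21 and 9 (0.59, 0.24 to 1.35). FEZ1, which acts in axon growth and transport, had 28 and 13 (0.64, 0.31 to 1.28). For none of these 6 could a lower share be told from counting error.

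Summits were more numerous on BRCA1, the DNA repair gene, which had 14 control and 43 siRBM10 summits (ratio 4.26, 2.29 to 8.43). COL5A1, a chain of type V collagen, had 8 and 53 (9.19, 4.34 to 22.4). In both genes the interval lay above 1. GAD1, which makes the transmitter GABA from glutamate, had 7 and 11 (2.18, 0.77 to 6.63). LMNB1, a component of the nuclear lamina, had 11 and 13 (1.64, 0.68 to 4.04), and NGEF, a guanine nucleotide exchange factor, had 19 and 24 (1.75, 0.92 to 3.38). DPH5, an enzyme of diphthamide synthesis, had 7 and 5 (0.99, 0.25 to 3.63).

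The remaining named genes had few summits in all. RAB26, a Rab GTPase, had 1 control and 5 siRBM10 summits, and NOS2, the inducible nitric oxide synthase, had 3 and 6. ANKRD1, a cardiac ankyrin repeat protein, had 1 and 2. LAMTOR3, a scaffold of MAPK and mTOR signalling, had 3 and 1, and GIMAP6, an immune-associated GTPase, had 1 and 0. PRSS58 and CD1C had none in either list. GCLC, an enzyme of glutathione synthesis that the study used as a non-target, had 16 and 14 (ratio 1.21, 0.55 to 2.65). Its interval is too wide to place it among the named genes or apart from them. TUT1 itself had 5 and 3 summits, of which 4 and 0 lay in exons.

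**Figure D1:**
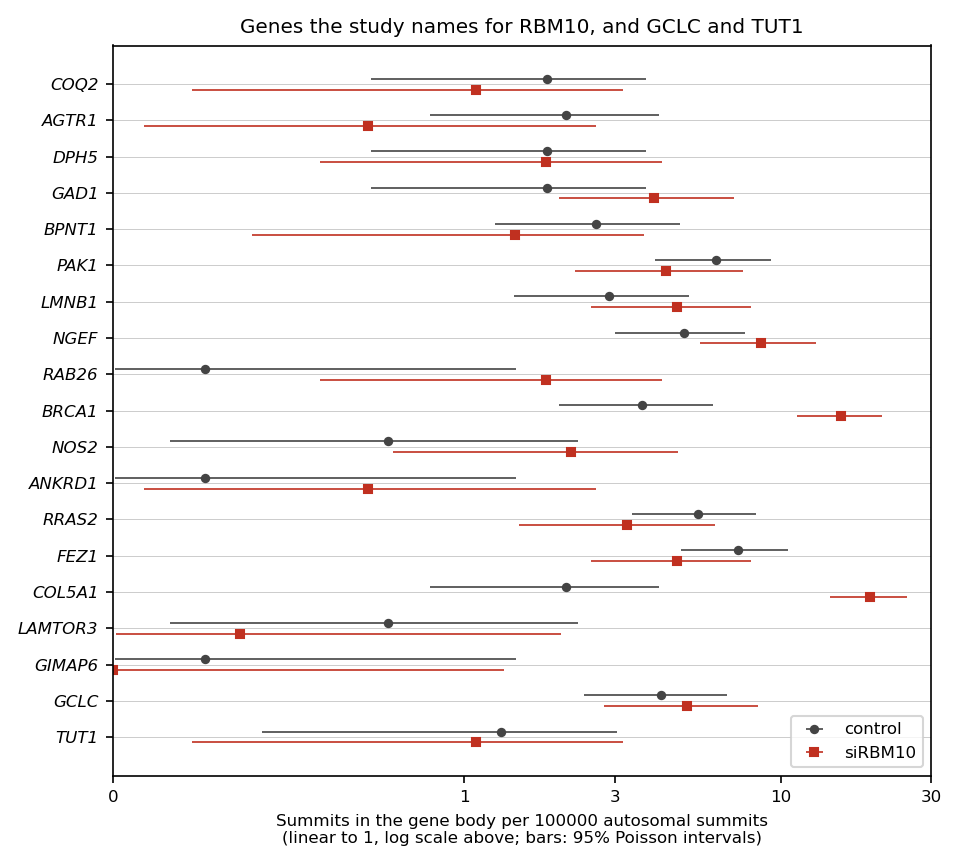
Summits in the gene body per 100000 autosomal summits of the list (x axis, linear to 1 and logarithmic above), for the genes the study names for RBM10, with GCLC and TUT1, in the control (circles) and siRBM10 (squares) libraries. Points are single libraries and bars are 95% exact Poisson intervals. The bars overlap for most genes and stand apart for BRCA1 and COL5A1, where siRBM10 is higher.

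In exons alone, 8 of the 19 named genes had a control summit. Of these, 5 had no siRBM10 exon summit (COQ2, RAB26, RRAS2, LAMTOR3 and GIMAP6), with 1 control summit each and 2 in COQ2. Over all genes with a control exon summit 34.9% had none on siRBM10, and 38.1% of those with a single one. The other 3 had summits in both lists, and 7 genes had a siRBM10 exon summit and no control one (GAD1, LMNB1, NGEF, BRCA1, ANKRD1, FEZ1 and COL5A1). Over all genes without a control exon summit 51.3% had a siRBM10 one. With so few genes and summits these counts are a description. The bases around the control exon summits of those 5 genes are shown because they are the sites that the siRBM10 list lacked. Each is 25 bases of hg19 on the strand of the gene, read 5' to 3' with the summit in the middle, and runs of at least 4 G or 4 T, the homopolymers described for RBM10, are in capitals.
COQ2, 3'-UTR, chr4:84187840-84187864, minus strand: aatgaatgaactaaatctaaTTTTg
COQ2, coding sequence, chr4:84188810-84188834, minus strand: atgctGGGGGcactgagcctagtgg
RAB26, coding sequence, chr16:2201691-2201715, plus strand: tgcagatgtgggacacagctggtca
RRAS2, 3'-UTR, chr11:14299707-14299731, minus strand: ccctgctagatattgattgttattt
LAMTOR3, 3'-UTR, chr4:100800483-100800507, minus strand: actatcccatagttcatctggaaaa
GIMAP6, 3'-UTR, chr7:150324217-150324241, minus strand: agcaagcaggaacagggatggaggc

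For comparison, the siRBM10 exon summit of lowest coordinate is shown for each of the 7 genes without a control exon summit.
GAD1, 5'-UTR, chr2:171672641-171672665, plus strand: tcaaacgtgattaatcaggaggcct
LMNB1, 5'-UTR, chr5:126112919-126112943, plus strand: aTTTTcccgcgtgcgtgtgtgagtg
NGEF, 3'-UTR, chr2:233743794-233743818, minus strand: caattgacacgatttcctgcacgcg
BRCA1, 3'-UTR, chr17:41196541-41196565, minus strand: ttctttgaggtgaTTTTTTTccttt
ANKRD1, coding sequence, chr10:92680089-92680113, minus strand: cctcataggtcactggaaagaagaa
FEZ1, 3'-UTR, chr11:125313791-125313815, minus strand: ctttcccccaatttatcctgccagc
COL5A1, exon of a transcript without coding sequence, chr9:137600718-137600742, plus strand: tctgcctgccgcttccagccccggg

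Runs of G or T occur in both sets. Over all autosomal exon summits in exons of a single strand, a run of at least 4 T, read on the strand of the gene, lay in 13.4% of 10556 control windows and in 7.82% of 20931 siRBM10 windows. Windows at every 25th exon base held one in 13.6%. A run of at least 4 G lay in 6.15% of control windows, 10.0% of siRBM10 windows and 7.57% of windows at every 25th base. Either run lay in 19.0%, 17.5% and 20.7%. The mean GC content of the windows was 46.0% in the control list and 53.4% in the siRBM10 list, against 47.6% at every 25th base. Summits carry no strand, so the strand is that of the annotated gene.

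Across the genome, the ratio of single genes was described for the 3169 genes with at least 30 summits in both lists together. These are long genes, with a median length of 186 kb against 27.6 kb for all members. They held 70.8% of the control summits in genes and 55.1% of the siRBM10 ones. Their ratios ran from 0.11 to 55.5 with a median of 0.92. At the limits of 0.5 and 2, 616 genes (19.4%) were lower with RBM10 depleted and 744 genes (23.5%) were higher. The limits cut through a continuous range, with 119 genes between 0.45 and 0.5 and 118 between 0.5 and 0.55, and 40 genes from 1.9 to 2 and 28 from 2 to 2.1.

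**Figure D2:**
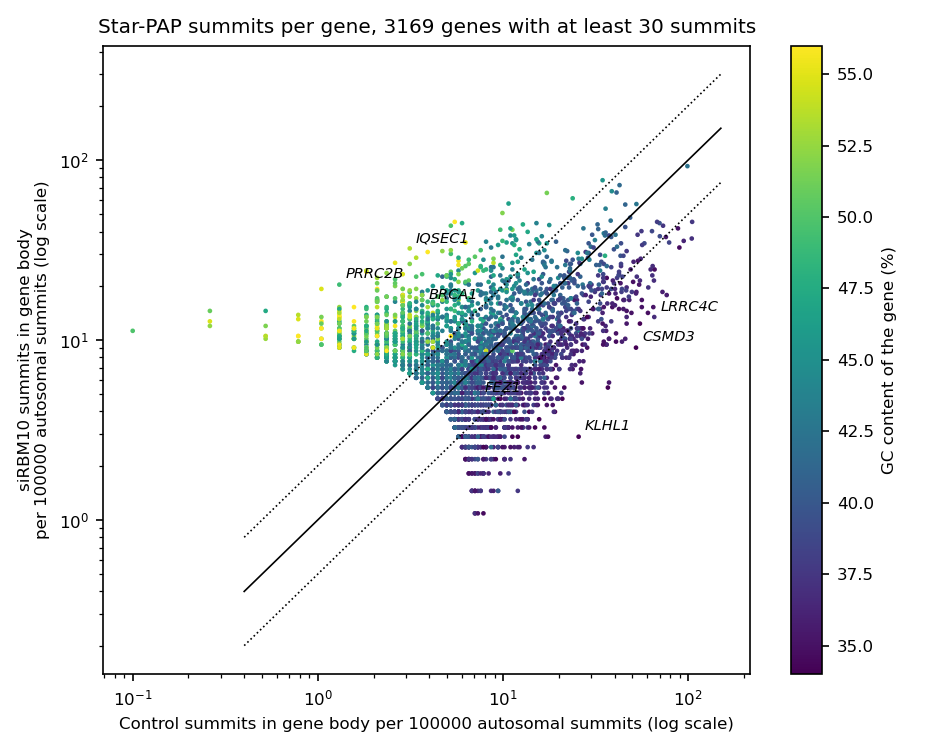
Summits in the gene body per 100000 autosomal summits in the control library (x axis) and the siRBM10 library (y axis), both on log scales, for the 3169 genes with at least 30 summits in both lists together. Each point is a gene, coloured by the GC content of the gene, and 1 gene without a control summit is drawn at the left edge. The solid line marks equal shares and the dotted lines a ratio of 2 and of 0.5. Genes of low GC content lie mostly below the solid line and genes of high GC content mostly above it.

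The 12 genes of lowest ratio among the 1209 genes with at least 60 summits were long genes, of 241 to 1346 kb. The lowest was KLHL1, a kelch-like actin-binding protein (chr13:70274726-70682625), with 98 control and 8 siRBM10 summits and a ratio of 0.11 (0.048 to 0.23). FSTL5, a secreted follistatin-like protein, had 141 and 15 (0.15, 0.080 to 0.25). RALYL, an RNA-binding protein of the RALY family, had 143 and 16 (0.16, 0.086 to 0.26). In these 3 genes all siRBM10 summits but 1, in FSTL5, were in introns.

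LRFN5, a synaptic adhesion molecule, had 67 control and 8 siRBM10 summits (ratio 0.17). DKK2, a secreted inhibitor of Wnt signalling, had 65 and 8 (0.17). CSMD3, a large transmembrane protein with CUB and sushi domains, had 200 and 25 (0.17). RERG, a Ras-related growth inhibitor, had 56 and 7 (0.17), and EPHA3, an ephrin receptor, had 64 and 9 (0.20). LRRC4C, the netrin-G1 ligand of synapses (chr11, 1346 kb), had the most control summits of the 12, 251, and 37 on siRBM10 (0.20, 0.14 to 0.29). KCNT2, a sodium-activated potassium channel, had 73 and 11 (0.21), GABRB1, a GABA-A receptor subunit, had 72 and 11 (0.21), and GALNT13, an O-glycosylation enzyme, had 102 and 16 (0.22). The intervals of all 12 lay under 0.5, but the genes were chosen for low ratios, so this is a description. They reached the minimum of summits mainly through the control list. Exons carried 12 of their control summits and 5 of their siRBM10 summits in all.

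The 12 genes of highest ratio were shorter, of 110 to 386 kb. The highest was PRRC2B, a proline-rich protein of the translation machinery (chr9:134249023-134375584), with 5 control and 56 siRBM10 summits and a ratio of 15.5 (6.28 to 49.7). PEPD, a dipeptidase that releases proline, had 7 and 67 (13.3, 6.10 to 34.3). VAV2, a guanine nucleotide exchange factor, had 7 and 66 (13.1). The control counts behind these 3 ratios are small, and the intervals that go with them are wide.

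TBCD, a cofactor of tubulin folding, had 8 control and 61 siRBM10 summits (ratio 10.6). IQSEC1, an exchange factor for Arf GTPases, had 12 and 89 (10.3), the most siRBM10 summits of the 12. ABR, a regulator of small GTPases, had 10 and 74 (10.3). DNAH17, an axonemal dynein heavy chain, had 9 and 65 (10.0), MPRIP, which binds myosin phosphatase, had 8 and 57 (9.88), and COL5A1 was the ninth. SPTBN4, a beta spectrin of axons, had 8 and 52 (9.02), RYR1, the calcium release channel of skeletal muscle, had 12 and 73 (8.44), and MARK4, a kinase of microtubule-associated proteins, had 13 and 79 (8.43). The lower ends of all 12 intervals were above 4, but the genes were chosen for high ratios, so this is a description. They reached the minimum of 60 summits mainly through the siRBM10 list. Exons carried 7 of their control summits and 76 of their siRBM10 summits, and 13 of the 76 lay in MPRIP and 11 in PRRC2B.

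**Figure D3:**
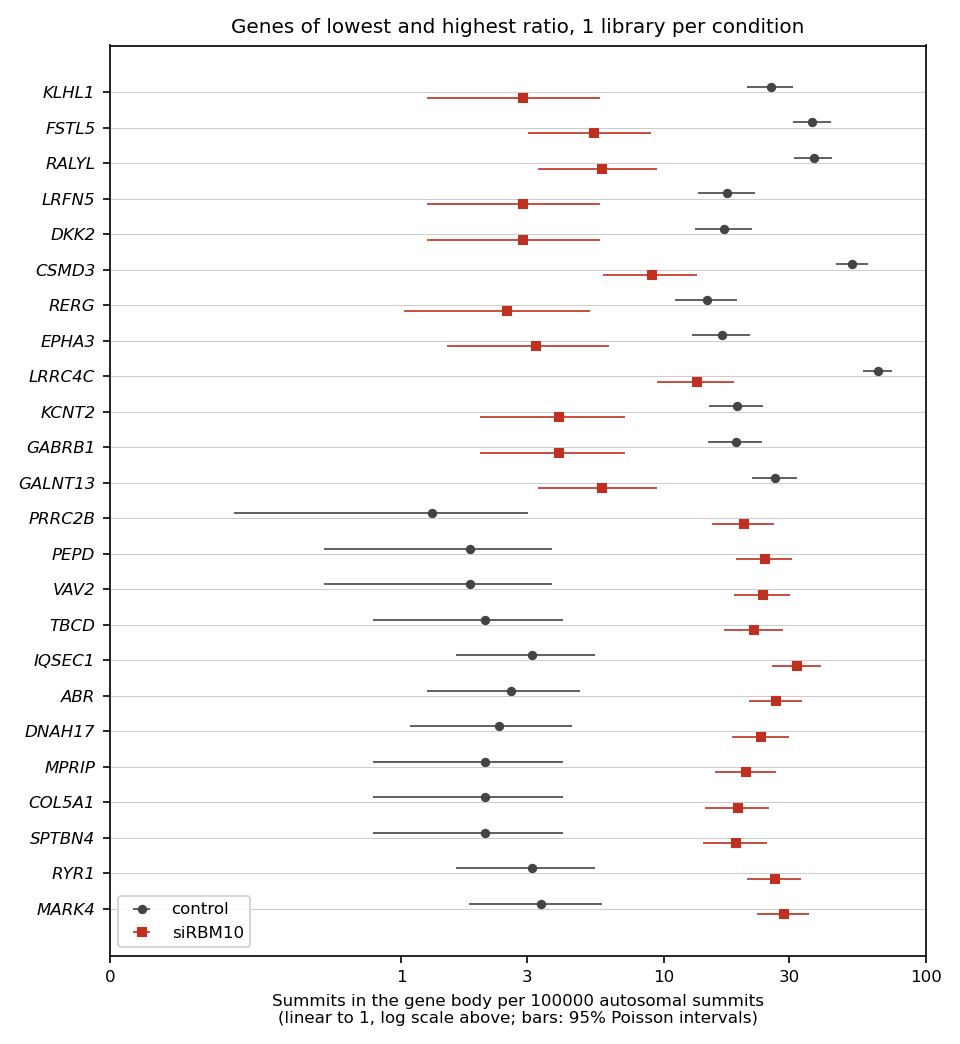
Summits in the gene body per 100000 autosomal summits (x axis, linear to 1 and logarithmic above) for the 12 genes of lowest and the 12 of highest ratio among genes with at least 60 summits, in the control (circles) and siRBM10 (squares) libraries. Points are single libraries and bars are 95% exact Poisson intervals. The genes were chosen for this difference, so the gap between circles and squares is a description.

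In exons, a control summit lay in 6840 genes and a siRBM10 summit in 10805 genes. Of the 6840, 2388 (34.9%) had no siRBM10 exon summit. Of the 12382 genes without a control exon summit, 6353 (51.3%) had a siRBM10 one. The loss followed the number of control summits. Among genes with 1 control exon summit 38.1% had none on siRBM10, and the share was 33.2% at 2 summits, 26.6% at 3, 18.2% at 4 and 12.5% at 5 or more. Of the 2388 genes, 1685 had a single control exon summit. A siRBM10 summit in an intron of the same gene was found in 1935 of the 2388 genes (81.0%).

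Genes with at least 12 exon summits in both lists together numbered 62. Of these, 35 were higher and 2 lower by the same limits. Over all genes the exon ratio was 2.76, with 10642 control and 21205 siRBM10 exon summits. Genes could thus reach the minimum through siRBM10 summits, so the excess of higher genes is in part fixed by it. Toward the low end, ZBTB20, a zinc finger repressor, had 12 control and 4 siRBM10 exon summits (ratio 0.46, 0.11 to 1.53). NFIA, a transcription factor of the nuclear factor I family, had 11 and 4 (0.50, 0.12 to 1.70). ANK2, the ankyrin that anchors ion channels in heart and neurons, had 9 and 4, GOLGB1, the Golgi protein giantin, had 13 and 6, and LARS1, the leucyl-tRNA synthetase, had 10 and 5. CSPP1, a centrosome and spindle protein, had 8 and 4, and SH3TC2, mutated in a peripheral neuropathy, had 8 and 5. The intervals of these genes all held 1.

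At the other end, SPG7, a protease of the mitochondrial inner membrane, had 1 control and 21 siRBM10 exon summits (ratio 29.1, 4.68 to 1205). SRRM2, a scaffold of nuclear speckles and splicing, had 1 and 16 (22.2, 3.45 to 931), and AKT2, a kinase of insulin signalling, had 1 and 14 (19.4, 2.95 to 821). SOGA1, MPRIP, MLLT6, a partner of KMT2A in leukaemic fusions, and ANKRD11, a chromatin regulator, had 1 and 13 each, and SPEN, a transcriptional repressor with RNA recognition motifs, had 1 and 11. The lower end of the interval was above 2 for all 8, although each rests on a single control summit. The 8 genes were chosen for their high ratio, so their intervals are a description.

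The ratio of a gene followed its GC content. Over the 3169 genes the Spearman coefficient between ratio and GC content was 0.86, given as a description because genes of 1 pair of libraries share their depth and base composition. In the quintile of genes with the lowest GC content (33.1 to 37.4%) the median ratio was 0.43, with 413 genes lower and 0 higher. In the middle quintile (39.3 to 41.4%) it was 0.90, with 33 lower and 25 higher. In the highest quintile (44.8 to 62.2%) it was 3.66, with 0 lower and 544 higher. The 12 lowest genes had a GC content of 33.7 to 36.9% and the 12 highest 49.1 to 56.3%.

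The exon ratio was above the intron ratio in each of these quintiles. In the lowest quintile exons had a ratio of 0.78 (0.71 to 0.87) and introns 0.42 (0.41 to 0.42). In the highest quintile the values were 5.69 (5.14 to 6.31) and 3.27 (3.19 to 3.35). The same order was seen by the GC content of the 201 bases around each summit. Below 35% the ratio was 0.54 in exons, 0.29 in introns and 0.20 outside protein-coding genes, and at 60% or more it was 6.92, 3.61 and 2.57. Base composition thus moved with the ratio in all parts of the genome, and its part in the differences between genes was not tested beyond the scaling by GC content given below.

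**Figure D4:**
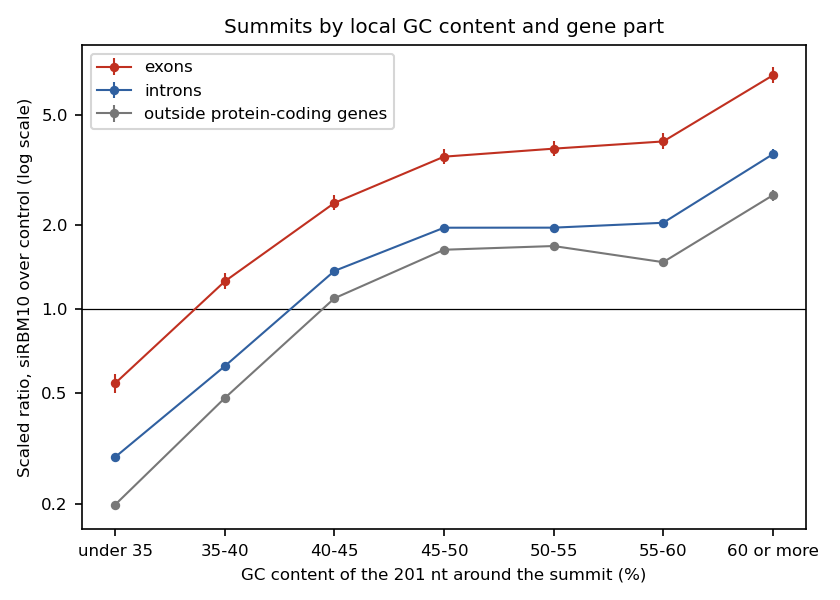
Scaled ratio of summits, siRBM10 over control (y axis, log scale), by the GC content of the 201 bases around the summit (x axis, in %), for summits in exons, in introns and outside protein-coding genes. Bars are 95% exact intervals for counting error and are mostly smaller than the points. The ratio of exons lies above that of introns in each class, from 0.54 against 0.29 to 6.92 against 3.61.

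Long genes had lower ratios. The median was 1.31 in the quintile of shortest genes and 0.66 in the quintile of longest genes, and Spearman's coefficient was -0.28. Within the lowest GC quintile the median ran from 0.59 in the shortest to 0.39 in the longest genes, and within the highest from 4.16 to 3.05. Median GC content differed as well, at 36.6 and 36.1% in the lowest quintile and 49.6 and 47.4% in the highest. The part of length apart from GC content was not tested. By chromosome, the median was lowest on chromosome 4 (0.48), where 83 of 165 genes were lower and 10 higher, and on chromosome 13 (0.55). It was highest on chromosome 19 (4.03), where 48 of 62 genes were higher and 0 lower, and on chromosome 22 (3.46).

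Neighbouring sequence moved with the genes. The flank ratio, taken from summits outside protein-coding genes within 1 Mb of the gene, had a Spearman coefficient of 0.72 with the ratio of the gene. KLHL1 had 408 control and 52 siRBM10 flank summits, a flank ratio of 0.18, and its ratio over the flank was 0.64. BRCA1 had a flank ratio of 4.13 and a ratio over the flank of 1.03. For COL5A1 these were 4.36 and 2.11, for PRRC2B 3.76 and 4.13. Relative to the flanks, 418 of 3168 genes were lower and 381 higher. Relative to genes of like GC content, 147 of 3169 were lower and 215 higher.

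Of the 1209 genes with at least 60 summits, 137 were lower and 91 higher than their flanks, and 38 and 45 than genes of like GC content. The genes farthest from their flanks were chosen after their values were seen. SCAPER, a cyclin A-interacting protein (chr15), had 133 control and 61 siRBM10 summits, a ratio of 0.64, while its flanks had 34 and 122, a flank ratio of 4.98. CDC42BPA, a kinase downstream of Cdc42, had 65 and 38 summits with a flank ratio of 6.32. On the other side, IQSEC1 had a ratio of 10.3 with a flank ratio of 1.97, and KLHL29 a ratio of 4.05 (25 and 73 summits) with a flank ratio of 0.80. FYN, a kinase of the Src family, had 14 and 49 summits, a ratio of 4.85, with a flank ratio of 1.04.

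Relative to GC content, the genes farthest to the low side were ATP11A, a phospholipid flippase, and KIF26B, a kinesin-like protein. ATP11A had a GC content of 50.4% and 43 control and 24 siRBM10 summits (ratio 0.77, where genes of like GC content had 3.90). KIF26B had 44.8% and 97 and 31 summits (0.44, against 1.92). Farthest to the high side were PDE4DIP, a centrosome and Golgi scaffold, with 40.99% and 18 and 62 summits (4.78, against 1.10), and ATG7, an autophagy enzyme, with 43.3% and 11 and 49 summits (6.18, against 1.44). PDE4DIP has near-identical copies in the genome, so its summits are uncertain.

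Genes were then described by family and pathway. Their counts are to be read against the 19.4% lower and 23.5% higher of all 3169 genes, and nothing is claimed as particular to a list. The members named are mostly those of lowest or highest ratio in their list. They could reach 30 summits through 1 library, so their ratios and intervals are a description. Genes of synaptic adhesion and scaffolding had 51 members with at least 30 summits, of which 25 were lower (49.0%) and 6 higher, with a median ratio of 0.50. LRFN5 and CSMD3 were the lowest, and PTPRS, a receptor phosphatase that binds synaptic partners, was the highest, with 12 control and 52 siRBM10 summits (6.01). These genes had a median GC content of 37.3%, against 40.2% for all 3169, and relative to genes of like GC content their median was 0.78. Relative to their flanks it was 0.94.

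GABA-A receptor genes, which encode subunits of the chloride channel opened by GABA, had 7 members counted, of which 6 were lower and 0 higher (median 0.26). Their median was 0.54 relative to genes of like GC content and 0.77 relative to their flanks. GABRB1 was the lowest and GABRB2 had 44 control and 7 siRBM10 summits (0.22). Of 18 glutamate receptor genes 7 were lower and 4 higher (median 0.57). GRIA2, an AMPA receptor subunit, had 30 and 3 (0.14, 0.027 to 0.45), whereas GRM4, a metabotropic receptor, had 6 and 42 (9.71, 4.11 to 27.9). Both were named as ends of the list and passed the minimum of 30 through 1 library, so this spread is a description.

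Ion channels and adhesion molecules showed the same spread. Of 29 potassium channel genes 9 were lower and 7 higher (median 0.74), with KCNH5 at 76 and 13 summits (0.24) and KCND3 at 9 and 32 (4.93). Of 17 calcium and sodium channel genes 4 were lower and 7 higher (1.34), with SCN2A at 39 and 7 (0.25) and CACNA1A at 22 and 79 (4.98). Of 22 collagen genes 5 were lower and 6 higher (0.91). COL5A2 had 27 and 4 summits (0.21), while COL5A1, whose product pairs with that of COL5A2 in type V collagen, stood at 9.19. Of 13 other cadherin genes 5 were lower and 3 higher (0.80), and of 20 ADAM and ADAMTS protease genes 9 were lower and 2 higher (0.59).

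Protocadherins had 24 members counted, 14 higher and 2 lower, with a median of 3.05. All 14 were genes of the gamma cluster, whose bodies overlap each other, so that the same 9 to 13 control and 22 to 24 siRBM10 summits were counted in each. With summits in a single gene only, 3 members could be counted and their median was 0.36. PCDH9 had 156 and 27 summits (0.24) and PCDH15, a protein of hair cell tip links, had 343 and 90 (0.36).

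Among nuclear and signalling lists, of 33 chromatin modifier genes 1 was lower and 10 higher (median 1.66). DNMT1, the maintenance DNA methyltransferase, had 7 control and 30 siRBM10 summits (5.94) and 0 and 11 in exons. Of 19 DNA repair genes 1 was lower and 6 higher (1.46), with ATR, a checkpoint kinase, at 32 and 10 (0.43) and POLE, a replicative polymerase, at 5 and 30 (8.32). Of 16 spliceosome and splicing regulator genes 4 were lower and 5 higher (1.44). MBNL1 had 41 and 9 (0.30), and RBM20, a splicing factor of heart muscle, had 10 and 45 (6.24). Relative to genes of like GC content the medians were 1.16 for chromatin modifier, 1.44 for DNA repair and 1.06 for spliceosome genes. Relative to their flanks they were 1.06, 1.24 and 1.28.

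Of 22 RTK-MAPK genes 1 was lower and 5 higher (0.89), with MAPK10 at 106 and 30 (0.39) and RPS6KA2 at 40 and 96 (3.33). Of 16 PI3K-Akt-mTOR genes 3 were lower and 4 higher (1.07), with INPP4B, a lipid phosphatase, at 139 and 26 (0.26) and AKT2 at 3 and 38 (17.6). RICTOR and RPTOR, which define the 2 mTOR complexes, had 29 and 8 (0.38) and 37 and 113 (4.24). Relative to genes of like GC content they were at 1.10 and 1.09, and relative to their flanks at 0.46 and 0.51. Of 12 Wnt genes 4 were lower and 4 higher (0.91), of 14 TGF-beta and BMP genes 1 and 4 (1.02), and of 11 JAK-STAT genes 0 and 1 (1.10). Genes of cardiac hypertrophy and the sarcomere, for which Star-PAP has been studied in the heart, had 18 members counted, 2 lower and 6 higher (0.94). MEF2C had 33 and 10 summits (0.42) and NFATC1 6 and 35 (8.09), both transcription factors of heart development.

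Exon summits of the same lists were summed over all members, whether or not they had 30 summits. For all genes the ratio was 2.79 (2.73 to 2.86), here with a summit counted in each gene it lies in. Ribosomal protein genes had 18 control and 119 siRBM10 exon summits, a ratio of 9.17 (5.56 to 16.0). Spliceosome genes had 50 and 198 (5.49, 4.01 to 7.65), glycolysis and core carbon metabolism genes 24 and 92 (5.32, 3.36 to 8.72), chromatin modifiers 96 and 288 (4.16, 3.29 to 5.30), and TGF-beta and BMP genes 25 and 82 (4.55, 2.88 to 7.43). These 5 intervals lay above the value of all genes. Median GC content was 47.3% in ribosomal protein and 47.6% in glycolysis genes, and all genes of 46.7 to 48.2% had an exon ratio of 5.34. It was 43.7% in spliceosome and 44.2% in chromatin modifier genes (3.41 at 43.1 to 44.2%), and 44.9% in TGF-beta and BMP genes (3.94 at 44.2 to 45.4%). The intervals of ribosomal protein and spliceosome genes lay above these values and the others held them. The part of GC content was not tested. Reads of ribosomal protein genes can be split with their many pseudogenes, so their counts are uncertain. Of the members with a control exon summit, 21.4% of ribosomal protein, 24.3% of spliceosome, 12.5% of glycolysis, 26.7% of TGF-beta and BMP and 2.50% of chromatin modifier genes had none on siRBM10, against 34.9% of all genes.

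The opposite was seen for olfactory receptor genes, which are single-exon coding genes of the nose. Their exons had 164 control and 87 siRBM10 summits, a ratio of 0.74 (0.56 to 0.96), and 96 of 128 genes with a control exon summit had none on siRBM10, where the share over all genes was 34.9%. GABA-A receptor genes had 20 and 11 (0.76, 0.33 to 1.67) and synaptic adhesion genes 102 and 102 (1.39, 1.04 to 1.84). Zinc finger genes, the most numerous family with 503 members, had 381 and 656 (2.39).

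**Figure D5:**
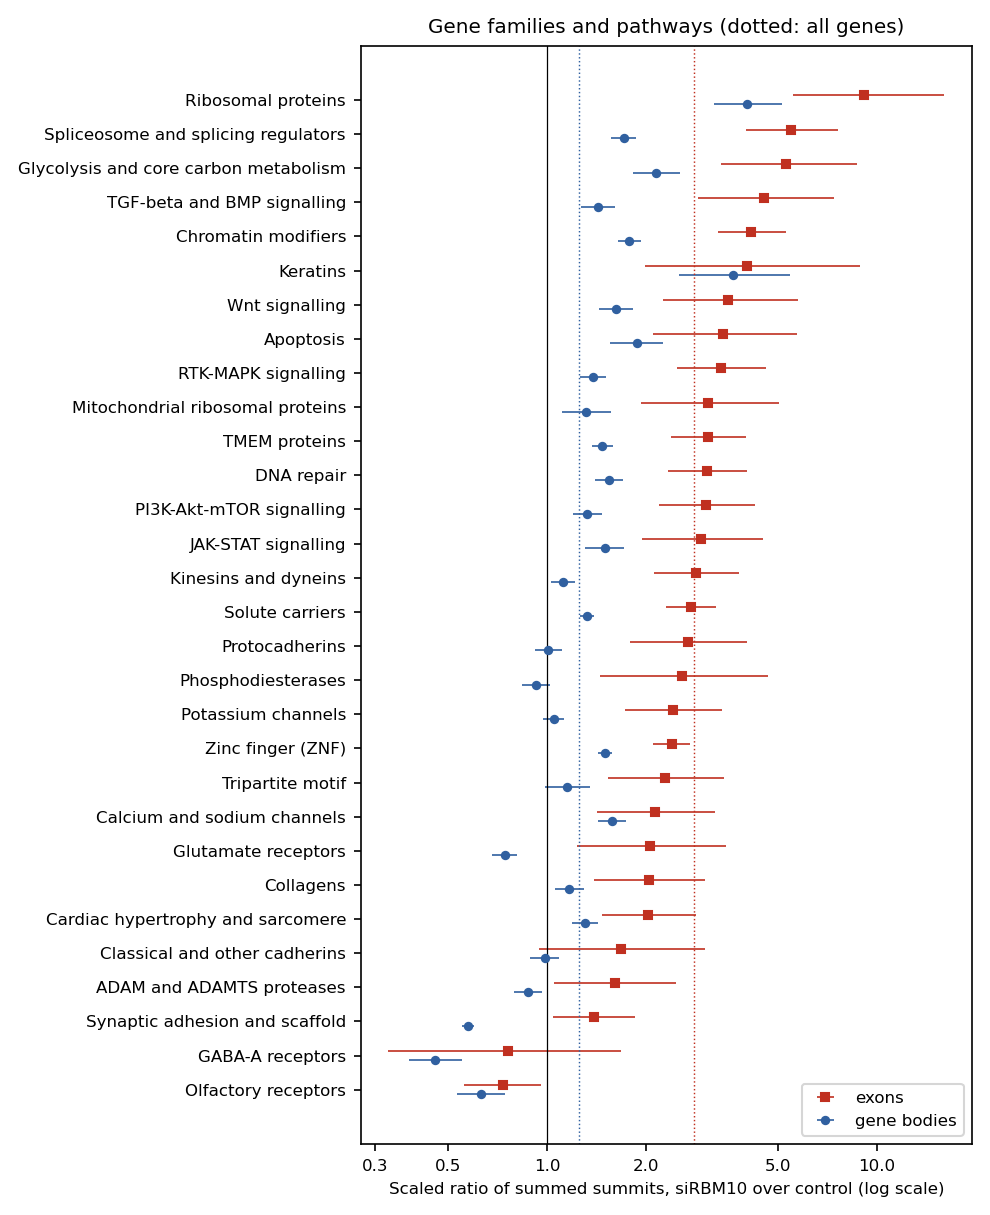
Scaled ratio, siRBM10 over control (x axis, log scale), of the summed summits in exons (squares) and gene bodies (circles) of lists with at least 10 control exon summits, in order of the exon ratio. Bars are 95% exact intervals for counting error and dotted lines are the values of all genes. Exon ratios run from 0.74 for olfactory receptors to 9.17 for ribosomal proteins, and lie above the gene body ratio in all lists drawn.

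The study also listed mRNAs that it did not detect on Star-PAP after RBM10 depletion. The list was chosen on these libraries, so its members are no independent evidence of a direction. The list was read from text taken from page images. Of 3403 entries, 3087 were matched by symbol, 187 by an older symbol and 129 not at all, so that some genes counted as not listed may be listed, and 3116 of the genes were autosomal. A control summit in the gene body was missing in 45 of these 3116 genes and a siRBM10 summit in 199, and 174 genes had a control summit and no siRBM10 one. At least 1 siRBM10 summit lay in 2917 of the genes and at least 1 siRBM10 exon summit in 1875. A single summit is not the criterion of detection that the study used, which rested on read tags per cluster and was not applied here.

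Among the 673 listed genes with at least 30 summits, 126 were lower (18.7%) and 157 higher (23.3%), with a median ratio of 0.94. Of the 2496 genes not on the list, 19.6% were lower and 23.5% higher, with a median of 0.92. In exons, 1512 listed genes had a control summit and 537 of them (35.5%) had no siRBM10 exon summit, against 1851 of 5328 (34.7%) for genes not listed. Summed over all members, listed genes had a lower ratio than the others, in gene bodies at 1.15 (1.13 to 1.17) against 1.28 (1.27 to 1.29). In exons it was 2.28 (2.17 to 2.40) against 2.94 (2.86 to 3.01). The list holds mRNAs that the study detected in the control. A control summit was missing in 45 of 3116 listed genes and in 5575 of 16106 others. The lower summed ratio is thus in part fixed by the choice of the list. Median GC content was 42.3% in listed genes and 46.2% in the others, and its part in this contrast was not tested.

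The siStar-PAP library, in which the antibody's target was depleted, is set beside siRBM10 for the named genes. Both comparisons divide by the same control counts and the genes were chosen for their siRBM10 ratio, so nearness of the values is in part fixed by that choice and nothing is read from it. For the 12 lowest genes its ratio over control ran from 0.14 to 0.51, where siRBM10 ran from 0.11 to 0.22. For the 12 highest it ran from 8.54 to 15.9, where siRBM10 ran from 8.43 to 15.5. KLHL1 had 11 summits on siStar-PAP and 8 on siRBM10, and PRRC2B had 60 and 56. BRCA1 had 53 and 43. The share of autosomal summits in exons was 7.67% on siStar-PAP and 7.68% on siRBM10, against 2.78% in the control.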

How the data were processed

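Star-PAP HITS-CLIP was done in HEK293 cells, 1 library per condition, and peak lists of the control, siRBM10 and siStar-PAP libraries were used. Per the labels and the study's methods, the authors trimmed reads with cutadapt (1.14), aligned them to hg19 with BWA (0.7.12) and called peaks per library with MACS2, with the IgG library as reference. The deposited files give each summit as a position of 1 base and a −log10 p-value or q-value as its score. The score was not used to filter. The peak lists hold no read depth.

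Summits were counted in gene bodies and exons (all transcripts) of GENCODE release 44 on GRCh37, without strand and in each gene they overlap, and divided by the autosomal summit total of the list (Python 3.11.15, numpy 2.4.6, pandas 2.3.3, scipy 1.17.1). Where a symbol was used more than once on the annotation, the longest entry was kept and the others (8) were left out. Ratios have exact conditional intervals and counts exact Poisson intervals, at 95%. They treat summits as independent counts. A count of 0 was entered as 3, and no ratio was given where both counts were 3 or fewer. Genes of at least 30 summits were called at a fold of 2. The genes named are the 12 lowest and 12 highest of at least 60 summits, the 8 lowest and 8 highest of at least 12 exon summits, those the study names for RBM10, and up to 2 at each end of a list. Some of these are not reported here. Alternatives changed the scaling, the minimum, the exons and the treatment of overlapping or close summits. Members and lists were chosen with earlier results of these data known. The script was tested on simulated counts.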

Additional observations from a re-analysis of the deposited data

How the results depend on the processing

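The counts of genes at the limits depended on the scaling and the minimum. Genes lower on siRBM10, 616 of 3169 (19.4%), were 365 when scaled by summits outside protein-coding genes and 1126 without scaling. They were 147 when scaled by genes of like GC content, a choice made after seeing the data. Genes higher, 744 (23.5%), were 381 of 3168 when scaled by flanks and 215 by genes of like GC content. At a minimum of 10 summits, 1269 of 8366 genes were lower (15.2%) and 3152 higher (37.7%). At a minimum of 60, 317 of 1209 genes were lower (26.2%) and 199 higher (16.5%). The share of lower genes thus rose with the minimum and that of higher genes fell. Of the 616 lower genes, 139 were also lower than their flanks and 76 than genes of like GC content. Of the 744 higher genes these were 275 and 174. Scaling by chromosome, summits in a single gene only and merging summits within 500 bp gave 474 to 594 lower and 629 to 712 higher genes. Of 2423 genes with at least 2 control exon summits, 703 (29.0%) had none on siRBM10. Of 5447 genes with at least 2 siRBM10 exon summits, 2935 (53.9%) had no control one. The other exon definitions kept the counts of genes that lost or gained exon summits within 1.5 times. The share of genes with a control exon summit that lost it, 34.9%, was 22.8% with exons extended by 250 bp, where 1475 of the 2388 genes were shared, and 45.1% in the exons of the longest coding transcript. The exon ratio was 3.40 when scaled by summits outside genes and 2.98 in the exons of the longest coding transcript, and the intron ratio 1.39 and 1.16. The median of the genes the study lists was 1.16 when scaled by summits outside genes, 1.02 by chromosome and 1.02 by flanks. The median of protocadherins reversed, from 3.05 to 0.36, with summits in a single gene only, where the construction leaves 3 genes, and was 3.75 when scaled by summits outside genes and 3.69 by chromosome. Scaled by flanks, the medians of synaptic adhesion genes (0.94), GABA-A receptors (0.77) and solute carriers (1.19) moved, and scaled by summits outside genes that of chromatin modifiers (2.05). Of 155 alternatives for named genes, 40 moved the ratio beyond its interval. The causes of the other changes were not tested. No paired analysis was possible because each condition had 1 library, which also limits every ratio to a description of these libraries.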
